A study of Mus musculus with 24 samples.

Results

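The comparison described here sets the effect of camptothecin on the injured dorsal root ganglion at 36 h after sciatic nerve crush against its effect at 18 h. It is camptothecin minus vehicle at 36 h, less camptothecin minus vehicle at 18 h. Its members are the 12 libraries of those times, of 24 labelled samples and 19 with count columns: 3 of camptothecin at 36 h, 3 of vehicle at 36 h, 3 of camptothecin at 18 h and 3 of vehicle at 18 h. The 7 libraries of 24 h, 4 with camptothecin and 3 with vehicle, entered the fit for the estimate of spread and show where a transcript stood between those times. All groups were wild-type C57B/L6 mice aged 12 weeks with a crushed sciatic nerve. Camptothecin at 2 mg/kg or vehicle went into the peritoneum 30 min after the crush, and the labels give whole ganglia as the source of RNA. The same protocol also says that cDNA was made from IP or FT RNA, terms it does not explain, so whether any fraction was taken is not known. The 6 groups share the injury, and no uninjured ganglion is among them. The labels do not say whether the samples came from separate animals or from pools, so p-values measure the spread between samples, which may be technical.

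Dorsal root ganglia hold the cell bodies of sensory neurons, wrapped by satellite glia, with Schwann cells, fibroblasts, vessels and macrophages around them. After a peripheral nerve is damaged, these neurons switch on transcription factors such as Atf3, neuropeptides such as galanin and neuropeptide Y, and growth-associated proteins such as Sprr1a and Gap43. Camptothecin traps topoisomerase I on DNA and hinders transcription elongation, most of all in long genes. Glucocorticoids, the steroid hormones of stress, induce genes such as Fkbp5, Zbtb16 and the metallothioneins in many tissues through a receptor that binds DNA.

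All 19 pan-neuronal genes of the list were measured, and they summed to between 27006 and 41270 counts per M counts (CPM, M for mega) in the 12 libraries, so the labelled tissue had its defining markers. Libraries held 9.84 ± 0.56 M counts with camptothecin and 4.64 ± 1.03 M with vehicle at 36 h, and 8.02 ± 1.85 M with camptothecin and 4.03 ± 0.388 M with vehicle at 18 h (mean ± SD over 3 libraries). The camptothecin arm was deeper by a factor of 2.12 at 36 h and 1.99 at 18 h. On the first principal component, which held 19.8% of the variance, the 4 libraries numbered 4 had scores of -63.7 to -34.3 and the other 15 had -41.4 to 55.9. These ranges overlapped through vehicle 3 of 18 h. The libraries numbered 4 were in both arms at 18 h, in vehicle alone at 36 h and in camptothecin alone at 24 h. Their deviation therefore enters the 36 h and 24 h effects through 1 arm, where it cannot be fully told apart from the drug. At 18 h it need not cancel between the arms: neuropeptide Y (Npy) was highest there in camptothecin 4 and lowest in vehicle 4. Results that rest on the libraries numbered 4 are given with and without them.

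Promoter sequence is shown for 3 genes. Steap4 had a drug effect that differed between the times, called above 0 at 36 h and below 0 but not called at 18 h. Npy is an injury gene that rose with camptothecin at 18 h and was not called at 36 h. Sprr1a is an injury gene called at neither time and is shown for the motifs it holds. Each sequence is the 250 bases before the gene's start in RefSeq on GRCm38.p6, 5′ to 3′ on the gene's own strand. Steap4 lies at chr5:7960222-7960471 on the plus strand, Npy at chr6:49822460-49822709 on the plus strand and Sprr1a at chr3:92485882-92486131 on the minus strand. Capitals mark TGANTCA, bound by AP-1 factors such as Jun, and AGAACA, a short motif of the glucocorticoid receptor, on either strand.
Steap4: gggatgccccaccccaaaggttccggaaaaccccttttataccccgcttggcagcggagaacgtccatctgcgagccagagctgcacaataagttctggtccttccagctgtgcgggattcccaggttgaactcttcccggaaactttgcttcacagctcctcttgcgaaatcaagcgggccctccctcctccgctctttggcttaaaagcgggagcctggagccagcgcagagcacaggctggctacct
Npy: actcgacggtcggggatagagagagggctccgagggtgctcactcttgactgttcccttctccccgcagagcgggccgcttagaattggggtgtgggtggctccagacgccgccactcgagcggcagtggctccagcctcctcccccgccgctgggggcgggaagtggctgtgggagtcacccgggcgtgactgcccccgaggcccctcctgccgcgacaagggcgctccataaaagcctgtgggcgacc
Sprr1a: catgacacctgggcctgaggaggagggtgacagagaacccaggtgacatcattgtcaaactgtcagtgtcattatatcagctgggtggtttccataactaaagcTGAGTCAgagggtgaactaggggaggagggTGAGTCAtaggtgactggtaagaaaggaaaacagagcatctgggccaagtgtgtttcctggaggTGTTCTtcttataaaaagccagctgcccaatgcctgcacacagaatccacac
Sprr1a held TGAGTCA at 2 places and, once, TGTTCT, which is AGAACA read on the other strand. The Steap4 and Npy windows held neither motif, nor did those of Hif3a, Gal and Atf3, which are not shown. Of all 32851 promoter windows of this length, 6.75% held TGANTCA and 16.1% held AGAACA. Among the 12 leading positive differences, 8 genes matched the table, and 0 of them held either motif. Of the regeneration-associated genes, 4 of 21 matched held TGANTCA (Bdnf, Il6, Plaur and Sprr1a), and of the injury neuropeptides and receptors 1 of 6 (Nts). The glucocorticoid-response genes held AGAACA in 2 of 14 matched (14.3%; Sgk1 and Tsc22d3), close to the share of all windows, and TGANTCA in 2 of 14 (Klf9 and Mt2). AGAACA was also in 4 of the 21 regeneration-associated genes (Bdnf, Csf1, Sprr1a and Stat3). The full palindromic glucocorticoid response element was in 3 of all windows, 1 of them that of Sgk1. The cAMP response element TGACGTCA was in 1.55% of all windows, in Plk2 among the leading positive differences and in Dusp1 among the glucocorticoid-response genes. Zbtb16, Shh, Nefm and Serpinb1a were not matched. A match describes letters in a window and is not a binding site.

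The camptothecin effect at 36 h differed from that at 18 h in 2 of 18606 transcripts (0.0107%) at an adjusted p under 0.05. Every adjusted p here, unless another tool is named, is from edgeR's quasi-likelihood test with Benjamini-Hochberg adjustment over all transcripts, two-sided, and a transcript that passes is said to be called. Both were lower with camptothecin at 18 h, where Steap4 was not called, and higher at 36 h. They were Zbtb16, a BTB zinc finger transcription factor, and Steap4, a membrane metalloreductase of iron and copper handling. At an unadjusted p under 0.05 there were 921 transcripts (4.95%), about the share that this threshold gives where nothing differs. Of them, 457 were positive and 464 negative. An effect is said to turn where it had opposite signs at 18 h and 36 h and a size of at least 0.3 on the log2 scale at each. It fades where the 36 h effect was at most 0.5 times the 18 h effect in size, and grows in the opposite case. Of all transcripts, 8.99% turned, 24.8% faded and 27.2% grew.

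Zbtb16 (ENSMUST00000093852, chromosome 9, 48654297 to 48835945, minus strand, 7 exons, GRCm38) had 32.8, 29.7 and 30.9 CPM with camptothecin at 36 h, against 5.86, 5.89 and 7.29 CPM with vehicle. At 18 h it had 5.29, 5.51 and 5.80 CPM with camptothecin, against 24.23, 22.8 and 6.33 CPM with vehicle. The camptothecin libraries lay above all vehicle libraries at 36 h and below all of them at 18 h, where the vehicle library numbered 4 was close to the camptothecin level. The effect was 2.28 ± 0.36 at 36 h (log2 fold change ± SE; adjusted p = 0.00469) and -1.66 ± 0.36 at 18 h (adjusted p = 0.0323), and their difference was 3.94 ± 0.51 (adjusted p = 0.00285). Zbtb16 was the 1 transcript called in opposite directions at these times. With log2 library total as a covariate, 0 transcripts were called at 18 h and 0 at 36 h. In the authors' limma results Zbtb16 had an adjusted p of 0.0513 at 18 h and 0.0052 at 36 h. At 24 h its effect lay between the others, at 0.23 ± 0.32. Within camptothecin it rose by 2.49 between 18 h and 36 h (adjusted p = 0.000797), and its change within vehicle was -1.45 (adjusted p = 0.0572). Without the libraries numbered 4 the difference was 4.50 (adjusted p = 1.84e-05).

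Steap4 (ENSMUST00000115421, chromosome 5, 7960457 to 7982213, plus strand, 5 exons) had 137, 117 and 123 CPM with camptothecin at 36 h, against 73.2, 64.8 and 59.2 CPM with vehicle. At 18 h it had 65.0, 81.4 and 94.8 CPM with camptothecin, against 109.8, 95.5 and 102 CPM with vehicle. Camptothecin and vehicle libraries were apart at each time in opposite directions, with the nearest libraries almost level at 18 h. The effect was 0.94 ± 0.14 at 36 h (adjusted p = 0.00415) and -0.35 ± 0.14 at 18 h (adjusted p = 0.235), and the difference was 1.28 ± 0.20 (adjusted p = 0.0215). Over time Steap4 rose by 0.64 with camptothecin (adjusted p = 0.0347) and fell by 0.64 with vehicle (adjusted p = 0.0242), where 0.43% of all transcripts fell. The call was lost without any 1 of 8 libraries, with adjusted p between 0.0582 and 0.172, while the difference stayed between 1.16 and 1.42 over the 12 libraries left out in turn. Those 8 were vehicle 3 and 4 of 36 h, vehicle 1 and 4 of 18 h, camptothecin 1 and 3 of 36 h, and camptothecin 2 and 3 of 18 h.

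**Figure D1:**
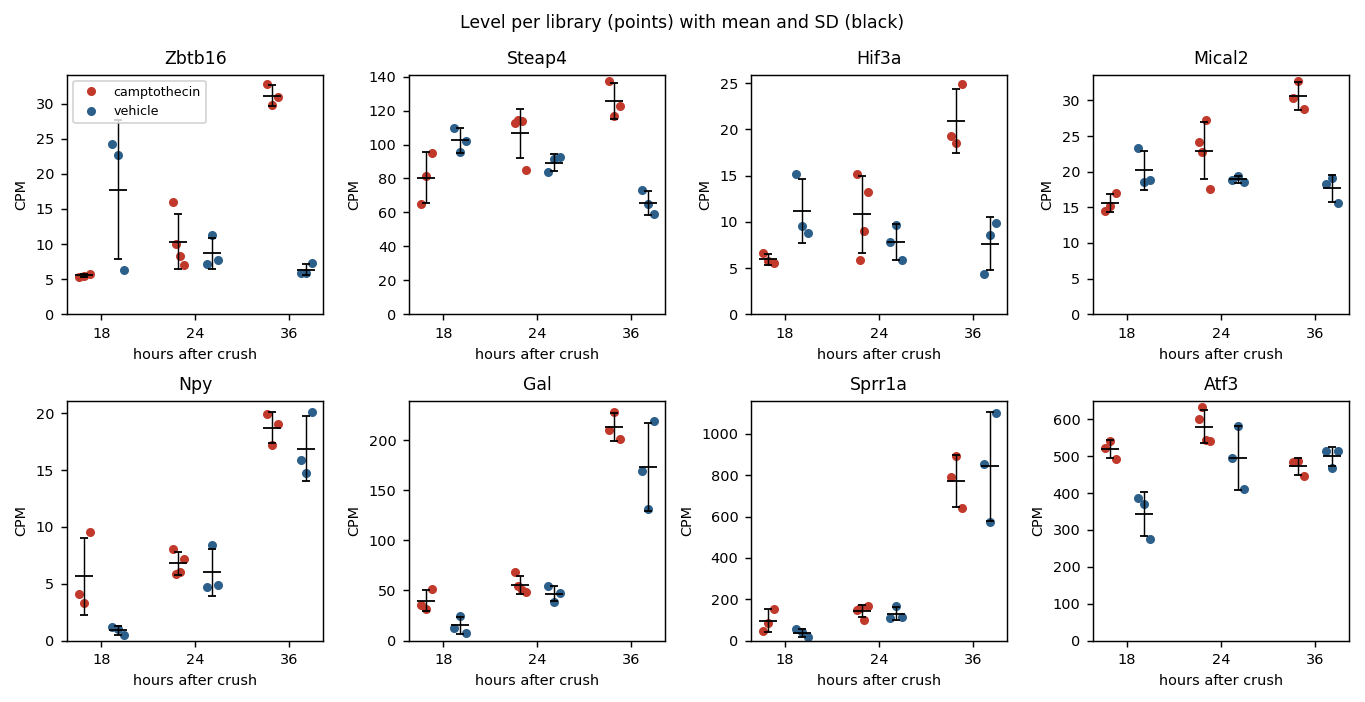
Level in CPM (vertical axis, from 0) of 8 genes at 18, 24 and 36 h after crush, with camptothecin (red) left of vehicle (blue); points are libraries and black marks the mean and SD. Zbtb16, Steap4, Hif3a and Mical2 lie higher with camptothecin at 36 h and lower at 18 h, while Npy, Gal, Sprr1a and Atf3 average higher with camptothecin at 18 h and overlap between arms at 36 h.

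Next in rank, and well outside the threshold, were Hif3a, Shh, Mical2 and Serpinb1a, all with an adjusted p of 0.303. The 12 positive differences of named genes with the smallest p also held Mpzl2, Plk2, Foxo1, Foxc2, Ptrf, Tspan11, Gart and Thbs4, and ran from 0.90 to 3.94. They were ranked on the difference, so their common direction follows from the choice. Of the 12, 10 turned, and Plk2 and Thbs4 grew. The 24 h effect lay between the effects at 18 h and 36 h in 12 of these 12 and in 8 of the 12 leading negative differences, and in 402 of the 457 positive (88.0%) and 365 of the 464 negative ones (78.7%). Those transcripts were taken for a wide gap between 18 h and 36 h, into which most 24 h effects would fall, so these counts are a description and support nothing. The median change over time of the 12 positive genes was 0.86 with camptothecin and -0.65 with vehicle. For the 12 leading negative ones it was -0.02 and 1.37.

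Hif3a, a transcription factor that tempers the hypoxia response, had 19.3, 18.5 and 24.9 CPM with camptothecin at 36 h, against 4.39, 8.54 and 9.89 CPM with vehicle. At 18 h it had 6.65, 5.71 and 5.54 CPM with camptothecin, against 15.2, 9.53 and 8.82 CPM with vehicle. Its camptothecin libraries lay above all vehicle libraries at 36 h and below them at 18 h. Of the 12 genes, 12 had all camptothecin libraries higher at 36 h (9.6% of all transcripts) and 8 had them all lower at 18 h (11% of all transcripts). The same 8 were apart in opposite directions (0.328%). The ranking on the difference favours such gaps, so these counts are a description and support nothing. The effect on Hif3a was 1.44 ± 0.33 at 36 h (adjusted p = 0.0208) and -0.90 ± 0.34 at 18 h (adjusted p = 0.201), a difference of 2.34 ± 0.48.

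Mical2, a monooxygenase that takes actin filaments apart, had 30.3, 32.7 and 28.8 CPM with camptothecin at 36 h, against 15.6 to 19.1 CPM with vehicle. At 18 h it had 14.5, 15.2 and 17.0 CPM with camptothecin, against 23.4, 18.5 and 18.8 CPM with vehicle. Arms were again apart at both times, and Mical2 rose at 36 h (0.80 ± 0.17, adjusted p = 0.0136), with a difference of 1.17 ± 0.24. Its less counted transcripts ENSMUST00000037991 and ENSMUST00000106648 had differences of -0.23 ± 0.42 and -2.03 ± 1.16, and reads shared by isoforms are uncertain.

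Ptrf, the caveolar coat protein cavin-1, had 101, 63.8 and 80.1 CPM with camptothecin at 36 h, against 47.8, 56.3 and 40.7 CPM with vehicle. At 18 h Ptrf had 51.3, 46.7 and 49.0 CPM with camptothecin, against 68.9, 55.6 and 65.6 CPM with vehicle. It lay higher in every camptothecin library at 36 h and lower in every one at 18 h, and it rose at 36 h (0.77 ± 0.20, adjusted p = 0.0396). Plk2, a stress-induced kinase and p53 target, had 43.6, 41.7 and 46.5 CPM with camptothecin at 36 h, against at most 30.6 CPM with vehicle. At 18 h Plk2 had 33.0, 45.0 and 33.5 CPM with camptothecin, against 46.1, 43.4 and 43.4 CPM with vehicle, which overlapped. It rose at 36 h (0.66 ± 0.14, adjusted p = 0.0151), fell within vehicle over time by 0.67 (adjusted p = 0.0189) and had a change of 0.24 within camptothecin (adjusted p = 0.545).

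Thbs4, a matrix protein of the thrombospondin family, rose at 36 h (1.22 ± 0.26, adjusted p = 0.0129) and had -0.11 ± 0.25 at 18 h. Tspan11, a tetraspanin, rose at 36 h (1.48 ± 0.40, adjusted p = 0.048) at levels below 8 CPM in these 12 libraries. Foxo1, a forkhead factor of insulin and stress signalling, had 0.59 ± 0.16 at 36 h (adjusted p = 0.0595) and -0.38 ± 0.16 at 18 h. Foxc2, a forkhead factor of mesenchyme and lymphatic vessels, Mpzl2, an adhesion molecule, and Gart, an enzyme of purine synthesis, were called at neither time, with effects of 1.05, 0.82 and 0.57 at 36 h and of -0.96, -0.84 and -0.91 at 18 h.

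**Figure D2:**
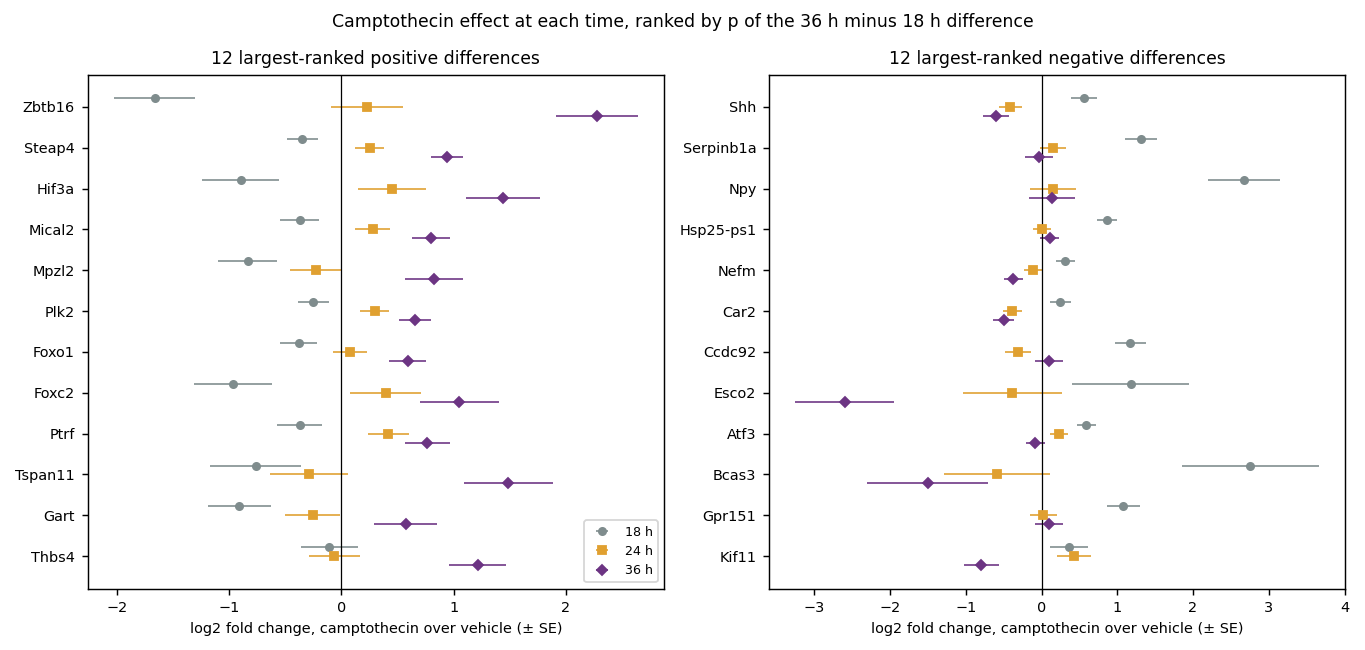
Log2 fold change of camptothecin over vehicle (horizontal axis, bars SE) at 18 h (grey circles), 24 h (orange squares) and 36 h (purple diamonds) for the 12 positive (left) and 12 negative (right) differences with the smallest p. On the left the effects run from below 0 at 18 h to above 0 at 36 h; on the right 6 genes fade and 5 turn.

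Glucocorticoid-response genes held 16 measured of 18 listed members, with a median difference of 0.71, beside -0.01 over all 13677 symbols. Of the 16, 12 were positive, 1 was called (Zbtb16), and 5 had an unadjusted p under 0.05, all positive: Zbtb16, Hif3a, Mt2, Fkbp5 and Pdk4. Over all symbols 402 were positive and 350 negative at that threshold. The list's median effect was -0.07 at 18 h, 0.24 at 24 h and 0.55 at 36 h. At 36 h 4 members rose, where 0.188% of all transcripts did, and 0 fell; at 18 h 0 rose and 1 fell. The list's median change over time was 0.70 with camptothecin and -0.08 with vehicle. Earlier results of these libraries were known when it was drawn up, so its count is not independent evidence of its direction.

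Mt2, a metallothionein that binds zinc and copper, had 104, 70.7 and 122 CPM with camptothecin at 36 h, against 42.5, 35.6 and 23.2 CPM with vehicle. At 18 h Mt2 had 77.4, 64.9 and 31.3 CPM with camptothecin, against 51.1, 57.2 and 33.5 CPM with vehicle. Levels overlapped at 18 h and not at 36 h. Mt2 rose at 36 h (1.57 ± 0.33, adjusted p = 0.0142), with a difference of 1.27 ± 0.47 (adjusted p = 0.986), or 0.93 without the libraries numbered 4. Its neighbour Mt1 rose at 36 h as well (1.06 ± 0.28, adjusted p = 0.0431), with a difference of 0.77 ± 0.39, or 0.54 without those libraries. Fkbp5, a co-chaperone of the glucocorticoid receptor, rested on few counts, with 2.06, 6.70 and 1.03 CPM with camptothecin at 36 h, against 0, 0 and 0.810 CPM with vehicle. Its fitted difference of 4.12 ± 1.70 ran from 2.04 to 8.60 as single libraries were left out. The list was not uniform: Per1, a clock gene, had a difference of -2.26, Lcn2, an iron-binding secreted protein, of -0.65, and Cebpd, a transcription factor of inflammation, of -0.54, none of them with an unadjusted p under 0.05. These 3 were named after their values were seen.

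Fibroblast and matrix genes lay to the same side. Of 17 measured of 19 listed, 16 had a positive difference, 8 an unadjusted p under 0.05, and 0 were called, with a median of 0.57. Without the libraries numbered 4 the median was 0.29, with 14 of 17 positive and 4 at an unadjusted p under 0.05. Without vehicle 1 of 18 h it was 0.39, with 2 at that threshold. With replicate number added to the fit it was 0.43, with 13 of 17 positive and 2 at that threshold. Their median effect was -0.17 at 18 h, -0.12 at 24 h and 0.36 at 36 h. Dcn, a small proteoglycan of connective tissue, had 121, 88.5 and 89.7 CPM with camptothecin at 36 h, against 63.7, 55.4 and 43.8 CPM with vehicle. At 18 h Dcn had 54.6, 54.1 and 54.8 CPM with camptothecin, against 58.7, 44.5 and 62.2 CPM with vehicle. All camptothecin libraries were higher at 36 h, where Dcn rose (0.88 ± 0.18, adjusted p = 0.0102), and the arms overlapped at 18 h. Dcn also rose over time within camptothecin by 0.87 (adjusted p = 0.0195), with -0.03 within vehicle. Its difference was 0.90 ± 0.25, and 0.64 without the libraries numbered 4. The less counted Dcn transcript had a difference of 0.34 ± 0.31. Col5a1, a fibrillar collagen, had 0.49 ± 0.18 at 36 h and -0.36 ± 0.19 at 18 h. Fibronectin (Fn1) and the collagens Col1a1, Col1a2 and Col3a1, named after their values were seen, had differences of 0.86, 0.57, 0.53 and 0.72.

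In bulk ganglia, fewer cells of a type and less RNA per cell cannot be told apart. The 17 fibroblast genes summed to 2482 to 3187 CPM with camptothecin at 36 h, against 1728 to 2579 CPM with vehicle. At 18 h they summed to 1631 to 2328 CPM with camptothecin, against 1682.5 to 2467 CPM with vehicle. Both pairs of ranges overlapped. Schwann cell and myelin genes had a positive difference in 13 of 15 measured members, with a median of 0.33 (0.10 without the libraries numbered 4, 0.20 without camptothecin 4 of 18 h and 0.15 without camptothecin 1 of 36 h), and Mbp, a myelin protein, was the 1 member with an unadjusted p under 0.05 (0.71 ± 0.23). Satellite glia genes had a median of 0.11 with 0 of 12 at that threshold, and macrophage genes 0.17 with 1 of 14, the mannose receptor Mrc1 (0.73 ± 0.30). Neither of these medians was stable: with single libraries left out they ran from 0.02 to 0.40 for satellite glia and from -0.19 to 0.45 for macrophages. The part of cell make-up in the positive differences was not tested.

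**Figure D3:**
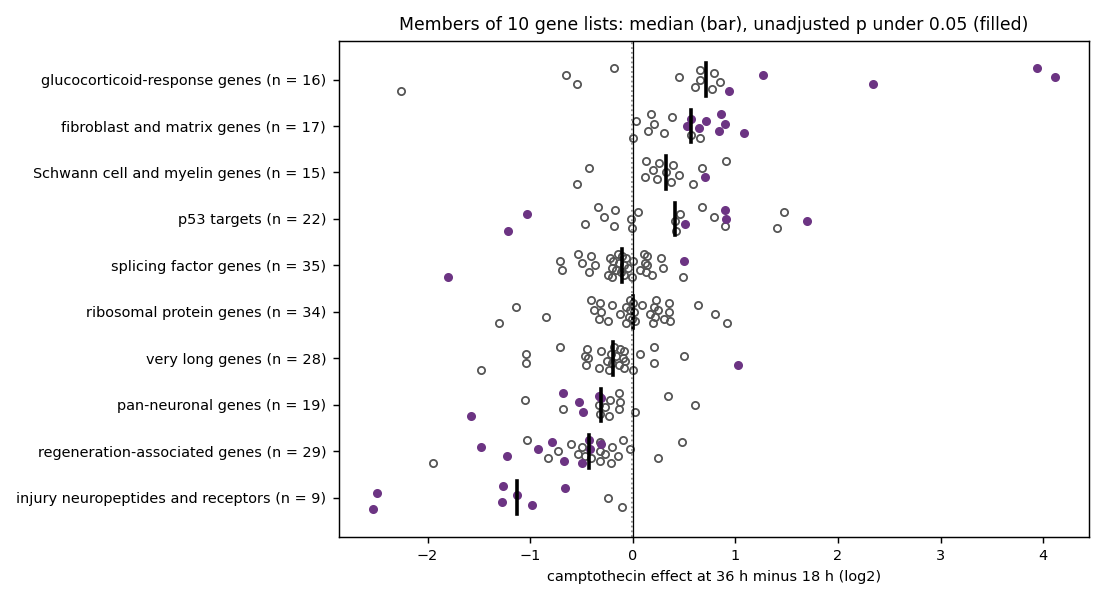
Camptothecin effect at 36 h minus 18 h in log2 (horizontal axis) for the measured members of 10 gene lists; bars are medians, filled points have an unadjusted p under 0.05, and the dotted line is the median of all symbols. Glucocorticoid-response and fibroblast genes lie mostly to the right (medians 0.71 and 0.57), and all 9 injury neuropeptides and receptors lie to the left (median -1.13).

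On the negative side edgeR called 0 transcripts, with 464 at an unadjusted p under 0.05, and DESeq2 called 2, Shh and Serpinb1a. Of the 12 negative differences with the smallest p, 6 faded and 5 turned. Of the 12, 10 had all camptothecin libraries higher at 18 h (8.07% of all transcripts), and 6 had them all lower at 36 h (8.7%). They were ranked on the difference, which favours such gaps, so these counts are a description and support nothing. Many negative differences were camptothecin rises at 18 h that were small later. At 18 h 294 transcripts were called (1.58%), and at 36 h 466 (2.5%). Of the 59 transcripts that rose at 18 h (0.317%), 53 faded, 0 turned and 0 were called at 36 h in the same direction. Their median effect was 0.64 at 18 h, 0.15 at 24 h and 0.15 at 36 h. They were taken for a high 18 h effect, which enters the difference, so these counts are a description. Their median GC content was 54.2%, beside 48.2% over all transcripts. Over time their median change was 0.13 with camptothecin, where 7 rose, and 0.62 with vehicle, where 30 rose. The 235 transcripts that fell at 18 h (1.26%) had another course: 28 faded, 1 turned, and 152 fell at 36 h too. The 294 calls at 18 h rest on single libraries: they became 12, 46, 5, 1 and 19 without vehicle 1, vehicle 3, camptothecin 2, camptothecin 3 and camptothecin 4 of 18 h, 180 without camptothecin 3 of 36 h and 723 without vehicle 4 of 36 h. A correction for GC content gave 21 calls, and library total as a covariate 0 (794 at an unadjusted p under 0.05).

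Injury neuropeptides and their receptors had 9 measured of 11 listed members. All 9 had a negative difference, 7 of them at an unadjusted p under 0.05 and 0 called, with a median of -1.13. Their median effect was 1.08 at 18 h, -0.02 at 24 h and -0.09 at 36 h. At 18 h 4 members rose, where 0.317% of all transcripts did, and 0 were called at 36 h. Both arms gained these transcripts over time: 5 of 9 rose with camptothecin (0.36% of all transcripts did), with a median of 1.41, and 7 of 9 rose with vehicle (1.01%), with a median of 2.67. Without vehicle 3 of 18 h the median difference was -1.72, and without vehicle 4 of 18 h it was -0.84. Without the libraries numbered 4 it was -0.55, with 9 of 9 still negative and 2 at an unadjusted p under 0.05, so its size was smaller without them. This list, too, was drawn up with earlier results known.

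Npy, the peptide transmitter neuropeptide Y that injured large sensory neurons begin to make, had 19.9, 17.2 and 19.01 CPM with camptothecin at 36 h, against 15.9, 14.7 and 20.1 CPM with vehicle. At 18 h Npy had 4.08, 3.31 and 9.54 CPM with camptothecin, against 1.17, 1.06 and 0.452 CPM with vehicle. Every camptothecin library was higher at 18 h, and the arms overlapped at 36 h. Npy rose at 18 h (2.67 ± 0.47, adjusted p = 0.0159) and had 0.14 ± 0.30 at 36 h, a difference of -2.53 ± 0.57 (adjusted p = 0.431). Over time it rose by 1.73 with camptothecin (adjusted p = 0.0093) and by 4.27 with vehicle (adjusted p = 8.03e-06). Of the 18 h libraries, camptothecin 4 was the highest and vehicle 4 the lowest, and without the libraries numbered 4 the difference was -1.44 (adjusted p = 0.733).

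Gal, the neuropeptide galanin that supports axon regrowth, had 210.0, 228 and 201 CPM with camptothecin at 36 h, against 169.8, 132 and 219 CPM with vehicle. At 18 h Gal had 36.0, 31.8 and 51.8 CPM with camptothecin, against 12.8, 24.6 and 7.69 CPM with vehicle. It rose at 18 h (1.42 ± 0.29, adjusted p = 0.0281), where the groups were apart, and had 0.29 ± 0.24 at 36 h, where they overlapped. Its difference was -1.13 ± 0.37, and -0.37 without the libraries numbered 4. Gpr151, an orphan receptor of injured sensory neurons, had 96.4, 128 and 95.6 CPM with camptothecin at 36 h, against 101, 84.5 and 113 CPM with vehicle. At 18 h Gpr151 had 23.1, 34.95 and 40.9 CPM with camptothecin, against 14.3, 20.1 and 12.7 CPM with vehicle, and it rose there (1.08 ± 0.21, adjusted p = 0.0276). Its difference was -0.99 ± 0.28, and -0.59 without the libraries numbered 4. Cckbr, a cholecystokinin receptor induced by nerve injury, rose at 18 h (1.30 ± 0.32, adjusted p = 0.0464) and had 0.03 ± 0.26 at 36 h; the difference of -1.27 ± 0.41 was -0.46 without those libraries.

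Further members were named after their values were seen. Neurotensin (Nts) had 0.35 at 18 h and -0.93 at 36 h, so that its effect turned by the definition used, as 8.99% of all transcripts did. Its difference was not called with all libraries, and was called without vehicle 3 of 18 h. Adcyap1, the neuropeptide PACAP, had 0.51 at 18 h and -0.15 at 36 h. The galanin receptors Galr1 and Galr2 had differences of -0.11 and -0.24, with neither at an unadjusted p under 0.05.

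**Figure D4:**
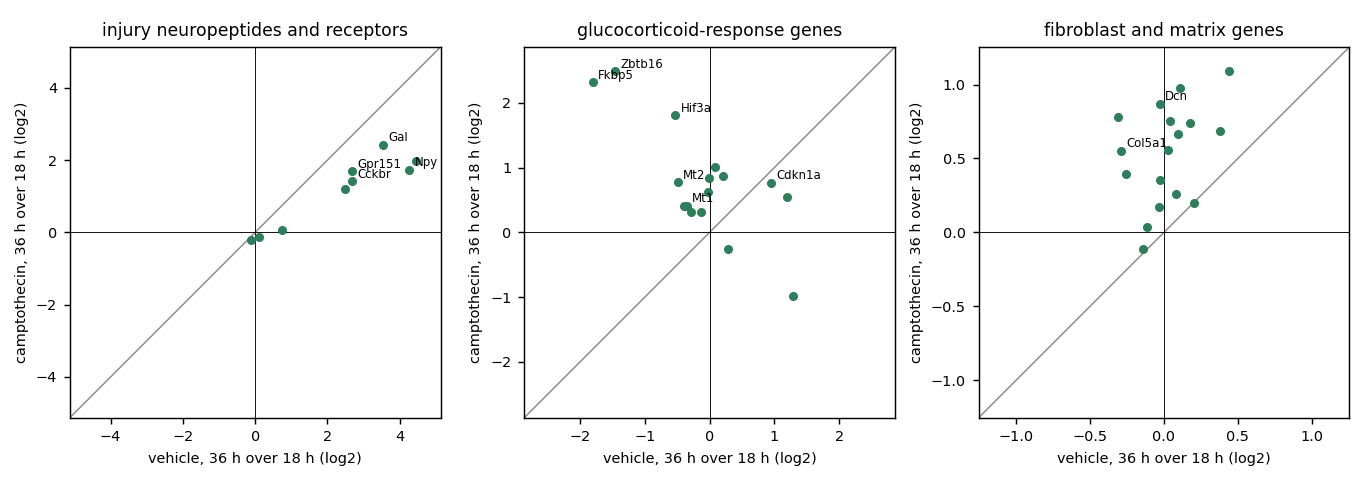
Change from 18 h to 36 h in log2 within vehicle (horizontal axis) and within camptothecin (vertical axis) for members of 3 lists; on the diagonal both arms change alike. Npy and Gal lie below the diagonal with gains in both arms, Zbtb16, Hif3a and Fkbp5 lie in the upper left, and Dcn lies above the diagonal near 0 on the vehicle axis.

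Regeneration-associated genes shared the direction at smaller sizes. Of 29 measured of 34 listed, 27 had a negative difference and 9 an unadjusted p under 0.05, with a median of -0.43 and 0 called. Over all symbols 49.4% of differences were positive. Without the libraries numbered 4 the median was -0.32, with 3 of 29 positive and 6 at an unadjusted p under 0.05. The list's median effect was 0.31 at 18 h, -0.04 at 24 h and -0.11 at 36 h. At 18 h 2 members rose (0.317% of all transcripts did), and at 36 h 3 fell (2.32%). Over time 4 members rose with camptothecin (0.36% of all transcripts) and 11 with vehicle (1.01%).

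Atf3, the injury-induced transcription factor, had 484, 488 and 445 CPM with camptothecin at 36 h, against 514, 469 and 515 CPM with vehicle. At 18 h Atf3 had 521, 542 and 493 CPM with camptothecin, against 387, 369.9 and 276 CPM with vehicle. The groups were apart at 18 h, where Atf3 rose (0.59 ± 0.13, adjusted p = 0.0323), and overlapped at 36 h; the difference was -0.67 ± 0.18 (adjusted p = 0.948). Over time Atf3 rose with vehicle by 0.54 (adjusted p = 0.0374), with a change of -0.14 with camptothecin.

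Sprr1a, a small proline-rich protein of regrowing axons, had 789, 892 and 641 CPM with camptothecin at 36 h, against 854, 575 and 1100.2 CPM with vehicle. At 18 h Sprr1a had 44.0, 86.7 and 154 CPM with camptothecin, against 54.0, 41.3 and 17.6 CPM with vehicle. The groups overlapped at both times, the 18 h effect was 1.35 ± 0.38 (adjusted p = 0.069), and the difference was -1.48 ± 0.50, or -0.39 without the libraries numbered 4. Sprr1a rose over time by 3.02 with camptothecin and 4.50 with vehicle (adjusted p = 0.000182 and adjusted p = 1.27e-06).

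Other members moved less or in another way. Sox11, a transcription factor of axon growth, had a difference of -0.49 ± 0.19, and Gap43, a growth cone protein, of -0.32 ± 0.19; without the libraries numbered 4 they were -0.24 and -0.18. Jun, an AP-1 subunit of the injury response, had -0.00 ± 0.10 at 18 h and -0.21 ± 0.10 at 36 h. Gadd45a, a stress-induced gene, had -0.47 ± 0.23 at 18 h and fell at 36 h (-1.005 ± 0.23, adjusted p = 0.0202), so that its effect grew. Mmp16, a membrane metalloprotease, had 0.24 ± 0.28 at 18 h and fell at 36 h (-0.99 ± 0.26, adjusted p = 0.0467).

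Serpinb1a, an inhibitor of neutrophil serine proteases, had 20.3, 26.3 and 23.7 CPM with camptothecin at 36 h, against 21.96, 20.9 and 28.7 CPM with vehicle. At 18 h it had 15.4, 12.8 and 14.8 CPM with camptothecin, against 4.67, 7.41 and 5.20 CPM with vehicle. It rose at 18 h (1.31 ± 0.21, adjusted p = 0.0129), where the groups were apart, and had -0.03 ± 0.18 at 36 h. The 9 measured neutrophil genes summed to 10.9 to 273 CPM with camptothecin at 18 h, against 36.8 to 66.9 CPM with vehicle, and 0 of them had a difference with an unadjusted p under 0.05. Ccdc92, a coiled-coil protein, faded as well, with 1.17 ± 0.21 at 18 h (adjusted p = 0.0159) and 0.10 ± 0.19 at 36 h, while its less counted transcript had a difference of -0.03 ± 0.66. Hsp25-ps1, a pseudogene copy of the small heat shock gene Hspb1, had 0.87 ± 0.14 at 18 h and 0.11 ± 0.13 at 36 h, and reads of the near-identical pair are uncertain.

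Of the 12 leading negative differences, 5 turned. Shh, the secreted signal Sonic hedgehog, had 45.8, 62.5 and 53.1 CPM with camptothecin at 36 h, against 88.6, 94.6 and 62.9 CPM with vehicle. At 18 h Shh had 152, 136 and 104 CPM with camptothecin, against 99.8, 80.7 and 84.6 CPM with vehicle. The groups were apart at both times in opposite directions, narrowly so at 36 h. The effect was -0.60 ± 0.17 at 36 h and 0.56 ± 0.17 at 18 h, neither called, and the difference was -1.16 ± 0.24 (adjusted p = 0.303); without the libraries numbered 4 it was -1.46 (adjusted p = 0.0207). Over time Shh fell by 1.28 with camptothecin (adjusted p = 0.000527), and its change with vehicle was -0.11.

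Nefm, the medium neurofilament subunit, had 5787, 7277 and 6264 CPM with camptothecin at 36 h, against 8683, 8945 and 7353 CPM with vehicle. At 18 h Nefm had 10881, 10189.8 and 8699 CPM with camptothecin, against 7711, 7855 and 8423 CPM with vehicle. Camptothecin was higher in every library at 18 h and lower in every library at 36 h, with the nearest libraries close at each time. The effect was 0.31 at 18 h and -0.37 at 36 h. Nefm fell over time with camptothecin by 0.62 (adjusted p = 0.0195), with 0.06 with vehicle. Its less counted transcript had a difference of -0.51 ± 0.17, beside -0.68 ± 0.18. That transcript had effects of 0.54 at 18 h and 0.03 at 36 h, so it faded and did not turn. Nefh, the heavy subunit, rose at 18 h (0.47 ± 0.11, adjusted p = 0.0382) and had -0.06 ± 0.11 at 36 h. Car2, a carbonic anhydrase of large sensory neurons, had 81.4, 107 and 123 CPM with camptothecin at 36 h, against 159, 149.6 and 130.3 CPM with vehicle. At 18 h Car2 had 188, 195 and 178 CPM with camptothecin, against 168, 145 and 159.6 CPM with vehicle, again apart in the opposite direction.

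Of the 19 pan-neuronal genes, 16 had a negative difference, 6 an unadjusted p under 0.05 and 0 were called, with a median of -0.31. Without the libraries numbered 4 the median was -0.22, with 5 of 19 positive and 6 at an unadjusted p under 0.05. The 19 genes summed to 27006 to 30531 CPM with camptothecin at 36 h, against 31058 to 36863 CPM with vehicle, which did not overlap. At 18 h they summed to 36443 to 41270 CPM with camptothecin, against 35882 to 37981 CPM with vehicle, which did. The median effect of the 19 genes was 0.22 at 18 h and -0.01 at 36 h. The typical member was thus not lower at 36 h, while the sum, which weighs abundant transcripts most, was. Shh and Car2 also lay lower there, as did Nefm, which is itself a sensory neuron marker and so no separate observation. The part of the neuronal sum in the differences of these genes was not tested. Sensory subtype and identity genes, which mark classes of sensory neurons, had 24 measured of 28 listed members and lay to the other side, with 16 positive differences and a median of 0.22. At an unadjusted p under 0.05 there were 2 positive and 1 negative, and 0 were called. The median was 0.13 without vehicle 4 of 18 h, 0.08 without vehicle 4 of 36 h and 0.08 without camptothecin 4 of 18 h. Without all libraries numbered 4 it was -0.10, with 8 of 24 positive.

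The remaining members of the negative ranking were Kif11, Esco2 and Bcas3. Kif11, the mitotic spindle motor, had 11.9, 10.0 and 12.7 CPM with camptothecin at 36 h, against 21.2, 16.8 and 21.9 CPM with vehicle. At 18 h Kif11 had 14.8, 9.11 and 8.77 CPM with camptothecin, against 7.30, 8.996 and 8.82 CPM with vehicle. The groups were apart at 36 h and overlapped at 18 h, and Kif11 rose over time with vehicle by 1.25 (adjusted p = 0.00871), with 0.09 with camptothecin. Esco2, a cohesin acetyltransferase of dividing cells, had 0.843, 0.788 and 0.620 CPM with camptothecin at 36 h, against 4.88, 2.65 and 6.16 CPM with vehicle, and fell there (-2.59 ± 0.65, adjusted p = 0.0353). The cell cycle genes had a median difference of -0.03, with 0 of 14 measured at an unadjusted p under 0.05. Bcas3 stayed below 3 CPM in these libraries, and its difference of -4.26 ± 1.21 rests on few counts.

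Camptothecin falls mostly kept their direction between the times. Of the 431 transcripts that fell at 36 h (2.32%), 426 were lower at 18 h too, 3 turned and 66 grew, and the median effect was -0.83 at 18 h, -0.60 at 24 h and -1.12 at 36 h. Their median GC content was 41.4%, beside 48.2% over all transcripts, and vehicle libraries differed from camptothecin libraries in GC trend and depth at each time, so that drug and library properties cannot be told apart for them. The 466 calls at 36 h became 145 with a GC correction and 0 with library total as a covariate (940 at an unadjusted p under 0.05). They became 73, 1 and 1015 without vehicle 2, vehicle 3 and vehicle 4 of 36 h, and 8, 258 and 199 without camptothecin 1, camptothecin 2 and camptothecin 3 of 36 h. Zbtb16 and Steap4 stayed called for the difference under both corrections. The positive and negative differences at an unadjusted p under 0.05 had median GC contents of 50.5% and 48.7%. Splicing factor genes had a median effect of -0.43 at 18 h and -0.62 at 36 h. Of 35, 8 fell at each time, where 1.26% of all transcripts fell at 18 h and 2.32% at 36 h. Their median difference was -0.11, which was 0.06 without the libraries numbered 4 and 0.12 without camptothecin 4 of 18 h alone. Very long genes had medians of -0.05 at 18 h, -0.33 at 24 h and -0.42 at 36 h, with 4 falling at 18 h and 5 at 36 h of 28. Their median difference was -0.19, with 1 member at an unadjusted p under 0.05, and was -0.09 without vehicle 3 of 36 h and -0.10 without camptothecin 2 of 18 h. Top1, the target of the drug, had -0.37 ± 0.16 at 18 h and fell at 36 h (-0.68 ± 0.16, adjusted p = 0.0204), with a difference of -0.31 ± 0.22.

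Of the 8 measured of 17 listed red cell genes, all at low counts, 4 fell at 36 h (2.32% of all transcripts did) and 1 at 18 h (1.26%). For the difference 0 were called. Hbb-bt, a beta globin, had 2.90, 1.08 and 2.58 CPM with camptothecin at 36 h, against 29.5, 15.9 and 22.4 CPM with vehicle. At 18 h Hbb-bt had 20.7, 5.31 and 2.19 CPM with camptothecin, against 13.1, 23.8 and 13.6 CPM with vehicle. Each camptothecin library was lower at 36 h, where Hbb-bt fell (-3.36 ± 0.68, adjusted p = 0.0106), and the arms overlapped at 18 h. The 8 members had a median difference of -1.42, with 2 positive, 6 negative and 1 at an unadjusted p under 0.05. The median was -0.85 without camptothecin 2 of 18 h and -0.30 with limma on the deposited log2 values. They summed to 6.60 to 16.6 CPM with camptothecin at 36 h, against 43.9 to 112 CPM with vehicle. Globin reads are shared by near-identical copies and are uncertain.

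Several lists had few or no members at an unadjusted p under 0.05. DNA repair genes had 0 of 27 and a median of 0.03, clock genes 0 of 17 and 0.04, and interferon-stimulated genes 0 of 16 and a median of -0.00. Ribosomal protein genes had 0 of 34.

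The p53 targets had 6 of 22 measured members (27.3%) at an unadjusted p under 0.05, 4 positive and 2 negative, where 5.50% of all symbols were, and 0 called. Their median difference was 0.42, but 0.06 without vehicle 3 of 18 h, 0.24 without vehicle 1 of 18 h, 0.22 without camptothecin 3 of 18 h and 0.22 without camptothecin 1 of 36 h. Among the 6 were Plk2 and the translesion polymerase Polk (0.90 ± 0.29). Cdkn1a, the cell cycle inhibitor p21, had -0.18 ± 0.28, and Mdm2, the ligase that degrades p53, had 0.41 ± 0.65 on few counts.

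**Figure D5:**
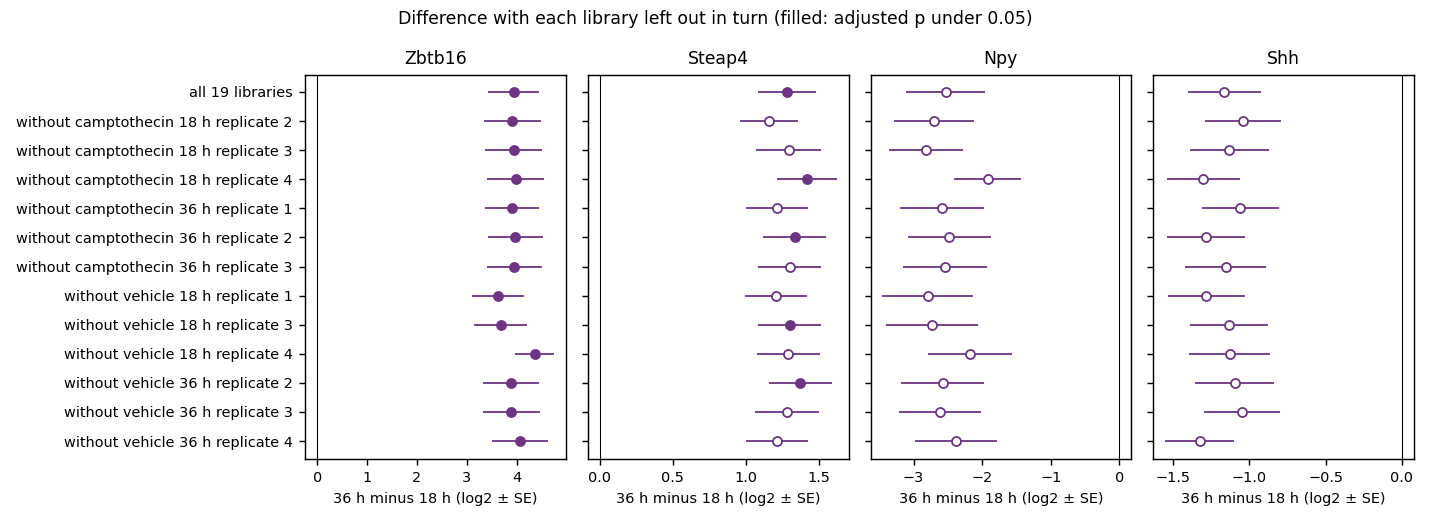
Camptothecin effect at 36 h minus 18 h in log2 (horizontal axis, bars SE) for 4 genes with all 19 libraries and with each library of 18 h and 36 h left out in turn; filled points have an adjusted p under 0.05. Zbtb16 is filled throughout, between 3.63 and 4.36, Steap4 is open without any 1 of 8 libraries, and Npy and Shh are open and below 0 throughout.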

How the data were processed

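The deposited table held whole-number counts per Ensembl transcript, per the file headers, log2-scale values per sample, and the authors' log2 fold changes and p-values from limma. CASAVA 1.8.2, limma and mm10 are named in the submitters' processing notes; aligner, counter and strand use: not given in the sources used here. Columns marked A were taken as vehicle and B as camptothecin, because the deposited log2 fold changes equalled mean B minus mean A to within 8.7e-14, against up to 4.32 with the letters exchanged. Of 24 samples, 5 had no column matched to them and were not analysed here. Isoforms were counted separately.

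Counts were fitted with edgeR 4.0.16 in R 4.3.3: filterByExpr (min.count 10, min.total.count 15) kept 18606 of 19571 transcripts, TMM scaled the libraries, and 6 group means over 19 libraries left 13 residual degrees of freedom. The SE is the log2 fold change over the square root of F. CPM used TMM-scaled totals. Libraries of a group differed beyond sampling noise, with a chi-square of 3.01 to 22.2 for each degree of freedom. Coordinates came from GENCODE M21.

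The members and the 41 gene lists were chosen with earlier results of these data known. Named genes were the 12 smallest p-values in each direction of the difference, the 2 smallest in each list, and 16 fixed genes, taking the transcript with the highest mean count. Alternatives were other scaling, filter and tools, 12 libraries, a replicate block, GC and depth corrections, counts per symbol, and libraries left out.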

Additional observations from a re-analysis of the deposited data

Results flagged for a closer look

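The camptothecin effect differed between 36 h and 18 h, by the test of that difference, for Zbtb16 (3.94 on the log2 scale) and for Steap4 (1.28). In camptothecin at 24 h, Steap4 had 1 library at 85.1 CPM, apart from the other 3; its gap was 0.926 of the group's range. The limit applied, Dixon's 95% value, is one that chance passes in about 1 of 20 groups; this gap was past it, and the other 3 values examined in that group had 0.399, 0.674 and 0.412.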

How the results depend on the processing

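The Zbtb16 difference was called in all 12 alternatives (2.03 to 4.50) and with each of 12 libraries left out (3.63 to 4.36). Steap4 was called in 10 of 12 alternatives and lost in the fit of 12 libraries (adjusted p = 0.0791) and with the replicate block (adjusted p = 0.0654). Transcripts called for the difference, 2 in all, numbered 6 with DESeq2, 1 with 12 libraries and 1 with the replicate block, and 1 to 3 with a library left out. The 294 calls at 18 h became 961 with DESeq2, 149 with limma-voom, 21 with the GC correction, 513 after thinning to equal depth, 0 with log2 library total as covariate (794 unadjusted), 500 with counts per symbol and 484 without the libraries numbered 4. The 466 at 36 h became 974, 265, 145 with the GC correction, 0 with the total (940 unadjusted), 845 with the replicate block and 1080 without the libraries numbered 4. Calls over time with camptothecin, 95, became 383 with DESeq2, 149 with limma-voom, 62 with 12 libraries, 148 per symbol and 210 without the libraries numbered 4; with vehicle, 268 became 571 with DESeq2, 166 with limma-voom and 99 without the libraries numbered 4. Single libraries left out gave 1 to 723 at 18 h (723 without vehicle 36 h replicate 4, 1 without camptothecin 18 h replicate 3), 1 to 1015 at 36 h (1015 without vehicle 36 h replicate 4, 1 without vehicle 36 h replicate 3), 36 to 160 over time with camptothecin and 151 to 274 with vehicle. The cause was not tested. Of 1390 values of 58 named genes, 1 reversed, Cdkn1a, which ran from -0.54 to 0.11 as single libraries were left out (0.11 without vehicle 18 h replicate 4). The medians of the injury neuropeptide, regeneration, glucocorticoid, fibroblast and pan-neuronal lists had the same sign in 24 of 24 alternatives. So did other lists, among them the p53 targets (0.06 to 0.44) and the Schwann cell and myelin genes (0.07 to 0.47). A kept sign therefore does not mark a list out, and the alternatives reuse the same libraries. With the replicate block the medians of the glucocorticoid, p53 and Schwann lists were 0.41, 0.19 and 0.07. Replicate numbers did not pair the samples throughout: of 37 same-number pairs, the 6 among the libraries numbered 4 correlated at 0.226 to 0.455, and the 31 of the other numbers at -0.21 to 0.181 (mean 0.0306). The libraries numbered 4 thus deviated together, for a reason the labels do not give, and 7 of 19 libraries were closest to their own number. Depth limits the vehicle libraries most, at 3.62 M counts in the smallest.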

Other observations

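Sst, the neuropeptide somatostatin that marks a class of itch-sensing neurons, had 4.40, 4.33 and 4.03 CPM with camptothecin at 36 h, against 2.93, 0.589 and 0.324 CPM with vehicle. At 18 h Sst had 5.75, 6.21 and 6.45 CPM with camptothecin, against 7.88, 8.47 and 6.10 CPM with vehicle. It fell over time with vehicle by 2.60 (adjusted p = 0.00717), with -0.53 with camptothecin (adjusted p = 0.68), and the difference of 2.07 ± 0.65 was not called (adjusted p = 0.986). Without vehicle 2 of 36 h it was 3.56 (adjusted p = 0.112), and with the other libraries left out in turn it ran from 1.498 to 2.20. Scn11a, the sodium channel Nav1.9 of nociceptors, fell over time with vehicle by 0.87 (adjusted p = 0.00145), with -0.42 with camptothecin, a difference of 0.45 ± 0.20, or 0.26 without the libraries numbered 4.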
